A study of Mus musculus with 30 samples.

Results

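The replication-dependent histone genes are the clustered genes that supply most of the histone protein for newly made chromatin. They were taken here as every mouse protein-coding gene whose symbol starts with Hist1h, Hist2h, Hist3h or Hist4h, which gave 67 of the 54232 gene IDs in each table. By class these were 6 genes for the linker histone H1, 18 for H2A, 18 for H2B, 12 for H3 and 13 for H4. Counts of reads per gene came from 30 RNA-seq libraries of pancreatic islets of wild-type male C57BL/6N mice, purified on a density gradient. In islet culture lasting 96 hours, 5 libraries had received 0.5 uM CdCl2 and 5 vehicle. In the in vivo treatment of 18 weeks, 5 libraries came from the 1 mM CdCl2 group and 6 from the vehicle group. In that of 6 weeks, 4 came from the 1 mM CdCl2 group and 5 from the vehicle group. The route of treatment and the ages of the mice were not given in the sources used here, and nothing there says that the libraries of a group came from separate animals, so p-values measure the spread between libraries.

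Replication-dependent histone mRNAs are made mainly in S phase, from promoters brought together in the histone locus body under the coactivator NPAT. In place of a poly(A) tail they end just after a conserved stem-loop, which the protein SLBP binds, and the U7 small nuclear ribonucleoprotein and the cleavage factor CPSF3 cut the transcript behind it. Some of these genes carry a polyadenylation signal further downstream and can also give polyadenylated transcripts, which have been described in differentiated cells. Adult islet cells divide rarely, and they also use replication-independent histones such as H3.3, whose mRNAs are polyadenylated and are made outside S phase.

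The 3′ ends are shown because the results are also given by them. The stem-loop was searched on the transcript strand as a stem of 6 paired bases that opens with GG, has T against A as its innermost pair and closes with CC, around a loop of 4 bases that starts with TT. It was found in a transcript of 44 members (65.7%), against 105 of 21901 protein-coding genes (0.479%). The examples include members with large differences between settings, Hist1h1c with a small one between 18 and 6 weeks, and Hist3h2a, which did not pass the test there. Capitals mark the stem and loop, the coordinates are those of the GRCm38 (mm10) genome, and each sequence is written along the gene's strand.
Hist1h4d, chr13:23581945-23581970, plus strand: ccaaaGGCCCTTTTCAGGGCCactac
Hist1h4n, chr13:21831793-21831818, minus strand: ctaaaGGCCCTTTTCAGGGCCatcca
Hist1h3f, chr13:23544927-23544952, plus strand: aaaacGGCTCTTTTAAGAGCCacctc
Hist1h1e, chr13:23621777-23621802, minus strand: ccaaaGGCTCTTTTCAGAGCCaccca
Hist1h1c, chr13:23739507-23739532, plus strand: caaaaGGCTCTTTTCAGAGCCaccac
Hist3h2a, chr11:58955167-58955192, plus strand: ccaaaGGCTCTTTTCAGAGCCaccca

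A polyadenylation signal, AATAAA or ATTAAA in the last 50 bases of the longest transcript, was found in 17 members (25.4%) and in 72.2% of protein-coding genes. On this basis 17 members had a signal near the end, 31 had a stem-loop without such a signal and 19 had neither motif in the annotated transcript. Many annotated transcripts with neither motif are short, with 312 bases for Hist1h4k, 381 for Hist1h2bn and 411 for Hist1h3i. A motif beyond an annotated end would not have been found. Capitals mark the signal in the examples, of which the first 4 belong to genes with a small difference between settings or none that passed the test, and the last to a gene whose signal starts close behind the stem-loop.
Hist1h1c, chr13:23740330-23740359, plus strand: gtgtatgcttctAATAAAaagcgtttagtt
Hist2h2be, chr3:96223705-96223734, plus strand: gttattattattAATAAAgttaccgattag
Hist3h2a, chr11:58956785-58956814, plus strand: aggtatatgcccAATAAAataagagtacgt
Hist3h2ba, chr11:58949495-58949524, plus strand: cataatggtattAATAAAtttggttcaatt
Hist1h4h, chr13:23531476-23531505, plus strand: ccacattttcttATTAAAagagcgaacatg

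The members lie in 4 places. The Hist1 cluster holds 54 of them between bases 21715763 and 23934851 of chromosome 13, and the Hist2 cluster holds 10 between 96219865 and 96270132 of chromosome 3. The 2 Hist3 genes lie between 58948920 and 58956830 of chromosome 11, and Hist4h4 lies at 136801553 to 136804415 of chromosome 6. RefSeq promoters (GRCm38.p6) were at hand for 62 members, and in the 150 bases before the start CCAAT on either strand was present in 51 of them (82.3%), against 24.5% of 32851 promoters of all genes. TATAAA on either strand was present in 24 (38.7%), against 7.57%. The promoters of Hist1h4d and Hist1h1c are printed with both motifs in capitals, as those of a gene with a very large and a gene with a small difference between settings. In the promoter of Hist1h4d the CCAAT motif lies on the other strand and reads ATTGG.
Hist1h4d, chr13:23581418-23581567, plus strand: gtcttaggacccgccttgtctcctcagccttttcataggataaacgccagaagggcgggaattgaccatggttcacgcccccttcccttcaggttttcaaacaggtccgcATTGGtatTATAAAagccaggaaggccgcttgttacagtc
Hist1h1c, chr13:23738657-23738806, plus strand: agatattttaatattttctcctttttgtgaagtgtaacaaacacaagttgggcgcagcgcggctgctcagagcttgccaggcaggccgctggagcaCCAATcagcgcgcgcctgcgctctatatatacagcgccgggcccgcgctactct

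The coding sequences of these genes are near copies of each other, which limits how well a read can be placed. The median member had 45.9% of its 50-base windows unique, that is, in no annotated transcript of another gene on either strand. Sequence outside the annotated transcripts was not searched. By class the medians were 98.9% for H1, 27.0% for H2A, 52.5% for H2B, 38.0% for H3 and 60.5% for H4. In all 30 libraries together, 8 members had 0 counts, 2 had 1 to 3 and 57 had more. The 8 members without counts had a median of 0.0% unique windows. How reads with several places were counted was not given in the sources used here, and neither was strand, which touches the 24 members that another gene overlaps. Values of members that share most of their sequence are therefore uncertain between copies.

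Library totals ran from 24197072 to 26549350 counts in cadmium culture and from 24267100 to 26501641 in vehicle culture. They ran from 21573301 to 51852364 in the cadmium and from 9092759 to 51404595 in the vehicle libraries of 18 weeks, and from 49953778 to 58366797 and 49564350 to 55504925 in the cadmium and vehicle libraries of 6 weeks. Defining markers of islet cells were present in all groups. No label names a preparation batch, and the 3 settings differ in depth, so the setting cannot be told apart from anything else that differed between these sets of libraries. In bulk tissue, fewer cells of a type and less RNA per cell cannot be told apart either.

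The sum of the 67 members was several times as high at 18 weeks as in the other settings, in cadmium and vehicle libraries alike. In CPM, counts set against a library total that TMM scales over all 30 libraries, the sum was 219.8 ± 15.5 in cadmium culture and 219.5 ± 21.1 in vehicle culture (SD, n = 5 each). It was 1365 ± 182 in the 5 cadmium and 1104 ± 190 in the 6 vehicle libraries of 18 weeks, and from 238.3 to 271.7 in the 4 cadmium and 229.7 to 257.1 in the 5 vehicle libraries of 6 weeks. The lowest 18-week library, at 907.6 CPM, lay above the highest library of any other setting, at 271.7 CPM. A library had a count for 44 to 50 members in cadmium culture, 44 to 49 in vehicle culture, 56 to 58 in cadmium and 53 to 57 in vehicle libraries of 18 weeks, and 43 to 45 in cadmium and 44 to 46 in vehicle libraries of 6 weeks. The 6-week libraries, though the deepest as a set, thus showed counts for 43 to 46 members only.

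**Figure D1:**
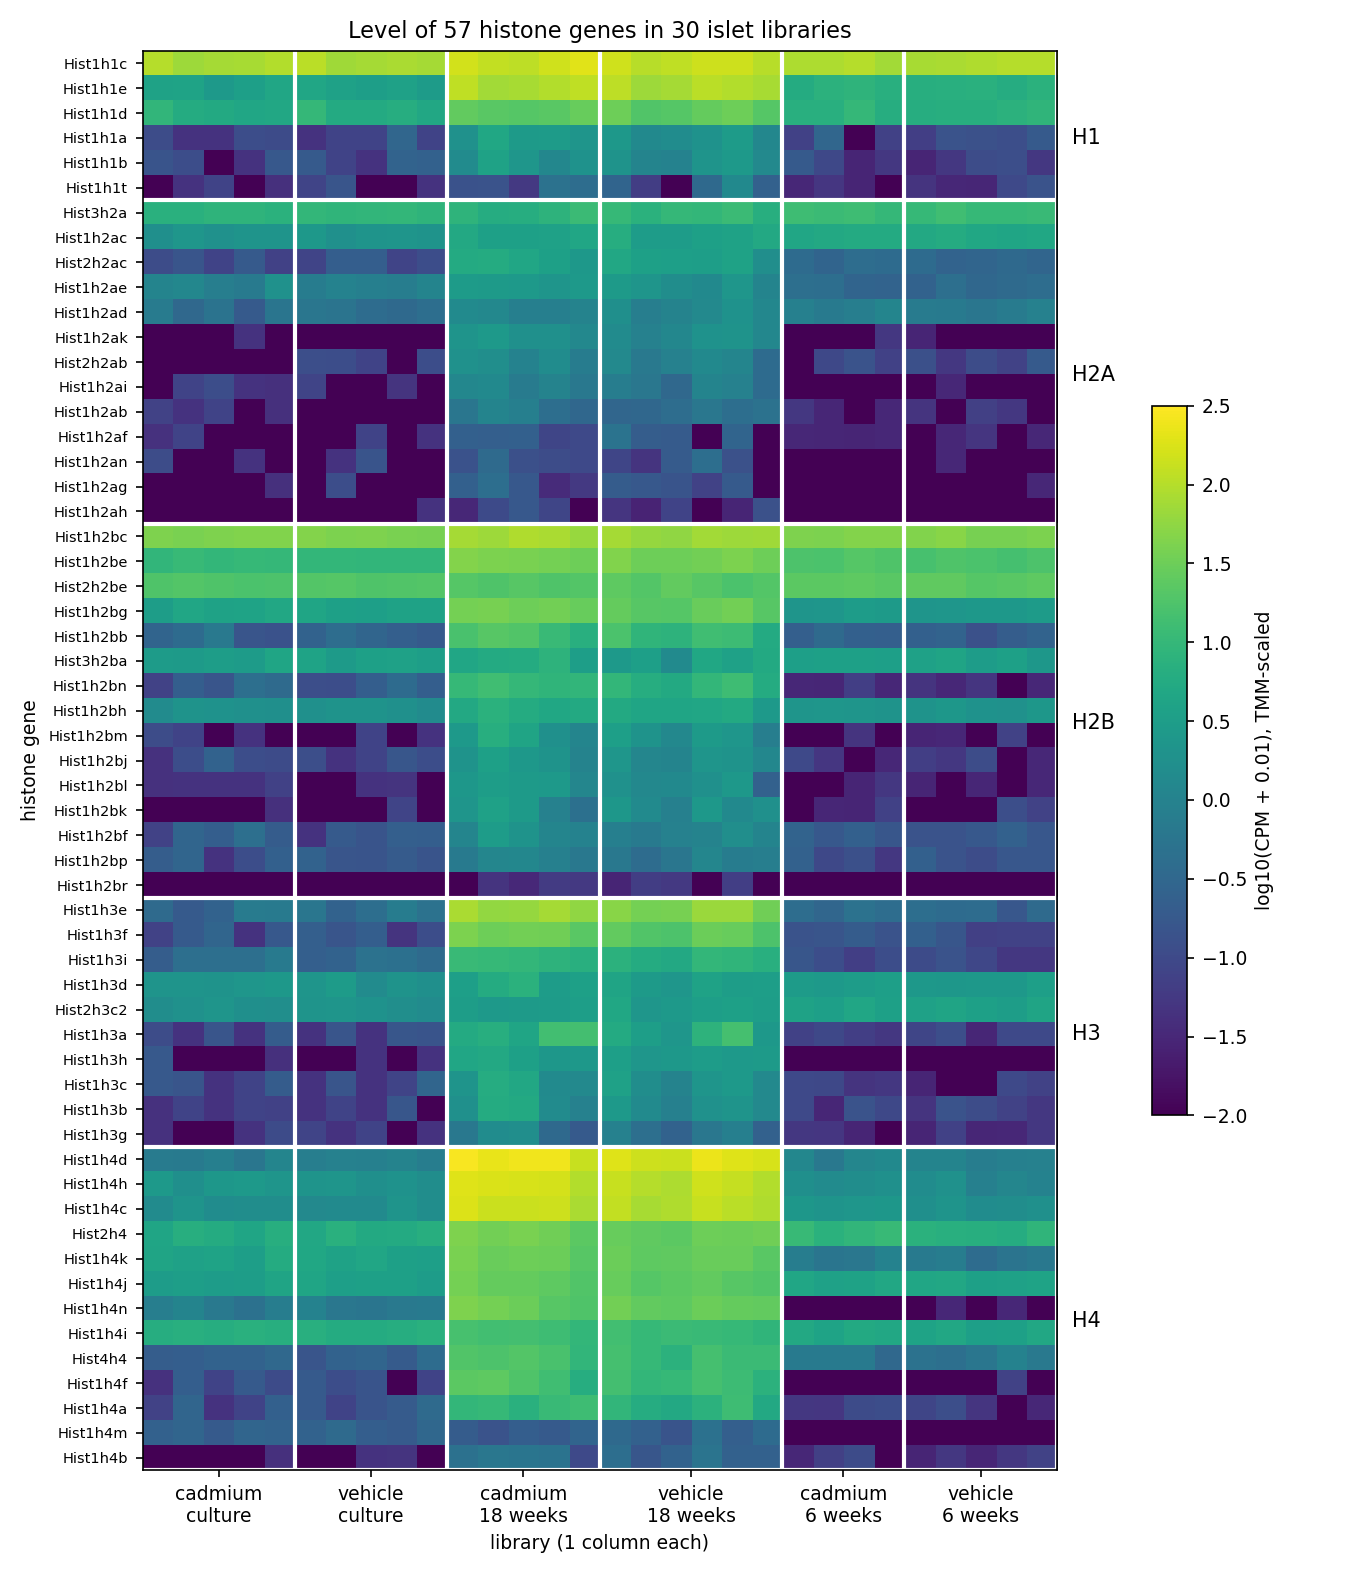
Level of each of the 57 members with more than 3 counts (rows, by class) in each of the 30 libraries (columns, by group), as log10 of CPM with a small constant added. The 18-week columns stand out as a bright block across most H3 and H4 rows, while rows such as Hist1h1c, Hist1h2bc and Hist2h2be are bright in every column.

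The make-up of the histone counts differed with the setting as well. H4 genes supplied 51.2% of the members' counts in cadmium and 49.4% in vehicle libraries of 18 weeks, but 11.9% in vehicle culture, and 10.1% in cadmium and 8.57% in vehicle libraries of 6 weeks. H1 genes supplied 43.2% in vehicle culture, 22.4% in vehicle libraries of 18 weeks and 43.8% in those of 6 weeks. In summed CPM the H4 genes were at 25.9 ± 0.752 in vehicle culture, 545.4 ± 93.9 at 18 weeks and 20.9 ± 2.46 at 6 weeks. The H3 genes were at 5.28 ± 0.586, 99.0 ± 29.0 and 7.25 ± 0.859 in the same order, and the H2A genes, the class with the narrowest range, at 12.9 ± 0.569, 24.2 ± 4.94 and 17.6 ± 1.84.

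**Figure D2:**
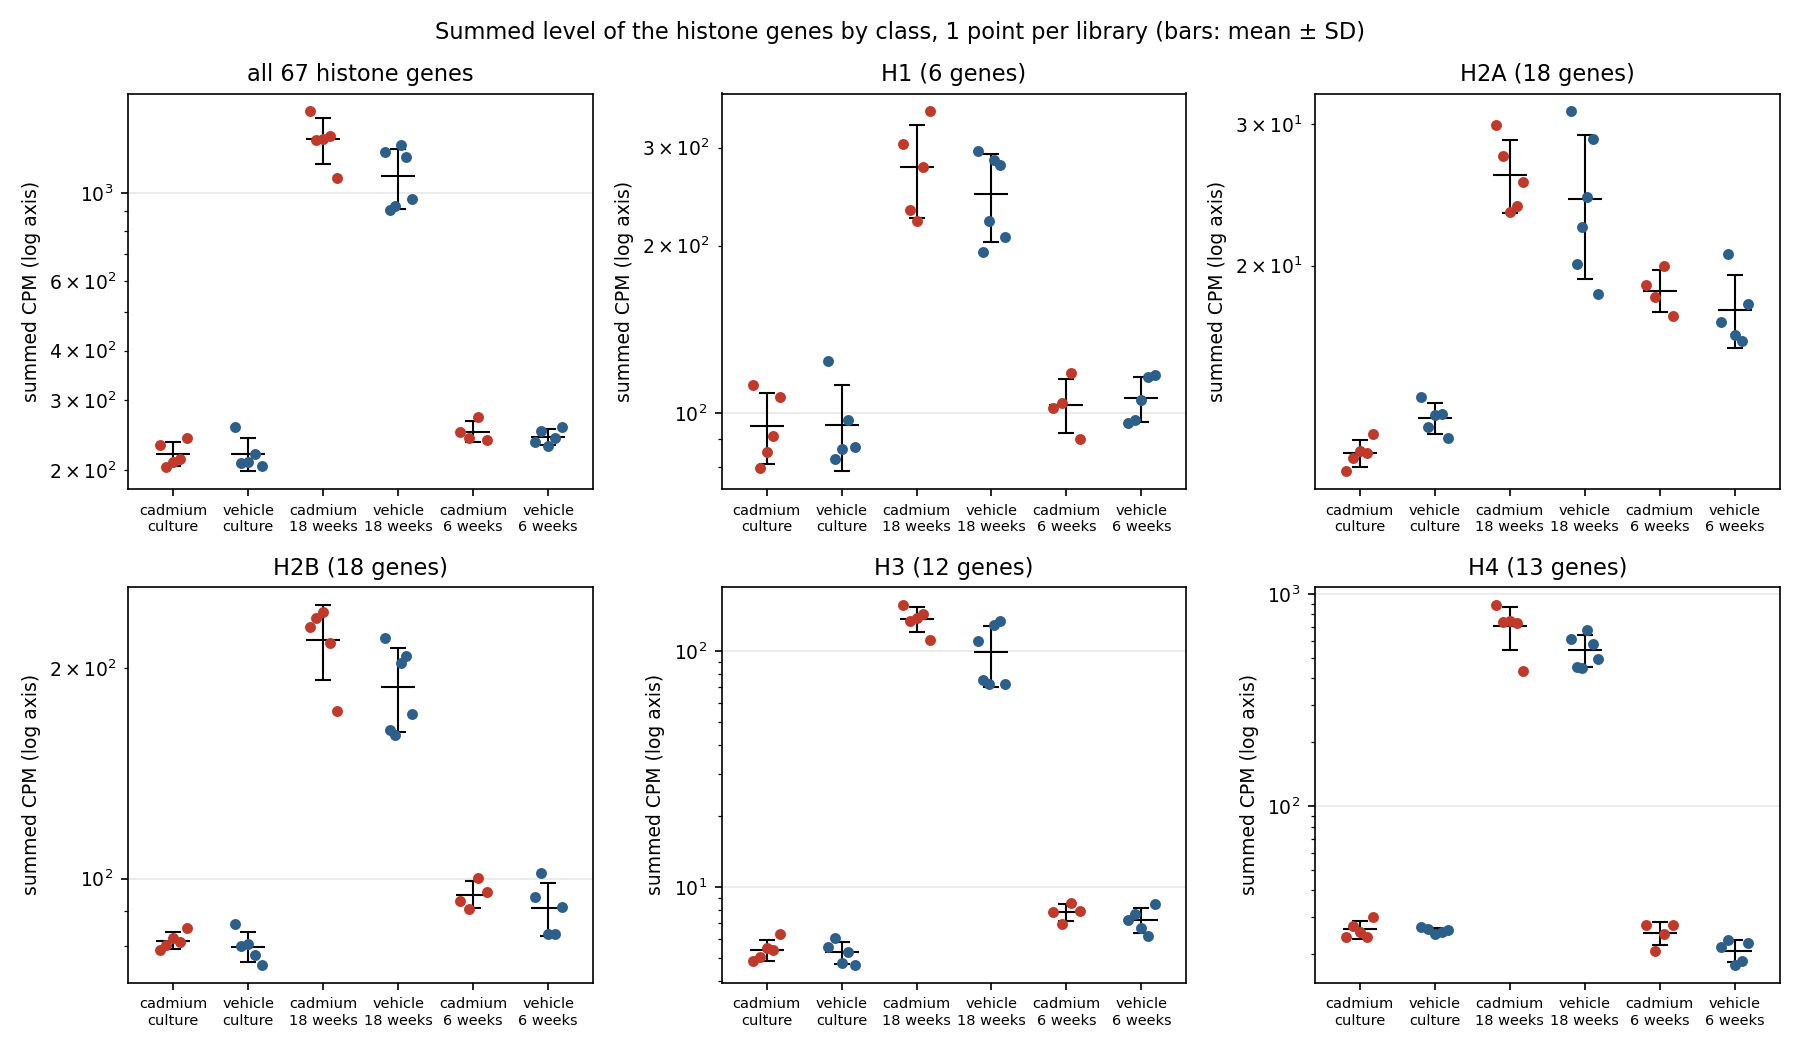
Summed CPM of all members and of each class (6 panels, log axis), with 1 point per library and the mean ± SD of each group, cadmium in red and vehicle in blue. In the H4 panel every 18-week library lies above 434 CPM and every other library below 31 CPM.

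Per kilobase of exon, the scale on which genes can be compared, the leading member changed with the setting. In vehicle culture Hist1h1c (54.5 CPM per kb), which encodes the linker histone H1.2, and the H2B gene Hist1h2bc (35.6) led, followed by Hist1h4k at 13.0. In vehicle libraries of 6 weeks the same pair led with 59.0 and 36.4, followed by Hist2h2be at 8.91, which encodes the H2B variant known from olfactory neurons. In vehicle libraries of 18 weeks 4 H4 genes led, Hist1h4h at 244.4, Hist1h4d at 154.6, Hist1h4c at 128.0 and Hist1h4k at 86.2 CPM per kb, ahead of Hist1h1c at 81.7.

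For vehicle islets of 18 weeks against those of 6 weeks, 53 of the 67 members had the higher mean CPM at 18 weeks, 4 had the lower one and 10 were at 0 in both groups. Of the 51 members that passed the count filter, 45 rose and 0 fell (edgeR's quasi-likelihood test, Benjamini-Hochberg adjusted p under 0.05 over all genes), where 35.9% of all 20551 genes tested rose. Of these 51, however, 25 do not pass that filter in the 6-week libraries alone, so that passing already required them to be higher at 18 weeks. Of the 26 that do pass it there, 20 rose and 0 fell, with a median log2 difference of 1.94. Of all 17784 such genes 26.6% rose and 41.5% fell, with a median of -0.14.

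The H4 genes, which encode the same core histone from many copies, had the highest summed CPM of the classes at 18 weeks. Hist1h4d had 187.0, 141.9, 135.2, 229.6, 190.6 and 171.0 CPM in the 6 vehicle libraries of 18 weeks (lowest 135.2, median 179.0, highest 229.6), against 1.07, 1.06, 0.788, 0.906 and 0.948 CPM in the 5 of 6 weeks. No library of 18 weeks came near the 6-week range, and the log2 difference was 7.55 ± 0.18 (SE, adjusted p = 7.18e-14). Hist1h4c had 81.2 to 130.9 CPM with a median of 101.3 at 18 weeks, against 1.76, 2.15, 1.54, 1.59 and 1.79 CPM at 6 weeks, a log2 difference of 5.92 ± 0.16 (adjusted p = 2.49e-13). Hist1h4h had 89.6 to 148.7 CPM with a median of 112.6, against 1.55, 1.89, 0.909, 1.15 and 0.970 CPM, a log2 difference of 6.50 ± 0.21 (adjusted p = 2.46e-12). For both genes every 18-week library lay far above every 6-week library.

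Hist1h4n had almost no counts at 6 weeks, and with 14.4% unique windows its level is uncertain between copies. It had 24.1 to 35.3 CPM with a median of 27.0 at 18 weeks, made of 6338 counts in 6 libraries, against 2 counts in the 5 libraries of 6 weeks. The ratio was 3850 with a 95% interval of 1070 to 31800 that covers counting error only (adjusted p = 6.58e-14). Hist1h4f followed with 2569 counts against 3, a ratio of 1040 (356 to 5050, adjusted p = 6.73e-11). Hist1h4k, at 26.9 ± 3.35 CPM (n = 6) against 0.605 ± 0.159 CPM (n = 5), rose by 5.50 ± 0.16 on the log2 scale (adjusted p = 5.18e-13). All 13 H4 genes passed the filter and rose, where 35.9% of all genes tested rose, with a median log2 difference of 5.92 and a smallest of 1.41. Only 8 of the 13 pass the filter in the 6-week libraries alone. Passing already required the others, Hist1h4n and Hist1h4f among them, to be higher at 18 weeks.

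Of the 12 H3 genes, 10 passed the filter and 8 rose, with a median log2 difference of 6.11. Only 3 of these 10 pass the filter in the 6-week libraries alone. Of these 3, Hist1h3e rose, and Hist1h3d and Hist2h3c2 did not pass the test. Passing already required the others, Hist1h3f, Hist1h3i and Hist1h3h among them, to be higher at 18 weeks. Hist1h3e, a gene for canonical H3, had 33.5 to 66.4 CPM with a median of 44.8 at 18 weeks, against 0.421, 0.369, 0.384, 0.155 and 0.353 CPM at 6 weeks. The log2 difference was 7.18 ± 0.27 (adjusted p = 1.39e-11), with the groups far apart. Hist1h3f, at 23.1 ± 5.97 against 0.115 ± 0.0744 CPM, rose by 7.62 ± 0.29 (adjusted p = 1.63e-11), and Hist1h3i, at 7.37 ± 1.68 against 0.0790 ± 0.0365 CPM, by 6.50 ± 0.27 (adjusted p = 4.27e-11). Hist1h3h had 620 counts at 18 weeks and 0 at 6 weeks, at least 251-fold higher when 3 counts over the 6-week group are taken as the floor. The H3 genes that did not pass were Hist1h3d, with a log2 difference of 0.32 ± 0.17 (adjusted p = 0.108), and Hist2h3c2, with -0.19 ± 0.18 (adjusted p = 0.344).

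The linker histone genes differed among themselves. Hist1h1e, the gene for H1.4, had 68.1 to 111.6 CPM with a median of 88.1 at 18 weeks, against 6.67, 6.82, 7.28, 6.16 and 7.50 CPM at 6 weeks, a log2 difference of 3.75 ± 0.13 (adjusted p = 7.5e-12). Hist1h1c had 102.2 to 146.9 CPM with a median of 132.4, against 83.0, 83.6, 91.2, 101.8 and 100.5 CPM, and rose by only 0.50 ± 0.11 on the log2 scale (adjusted p = 0.000638). The lowest 18-week library of Hist1h1c, at 102.2 CPM, lay just above the highest 6-week library. Hist1h1d, for H1.3, stood between them with 1.83 ± 0.16, at 25.3 ± 6.21 against 7.26 ± 1.06 CPM.

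H2A and H2B held most of the members that did not pass the test. Of the H2B genes, 12 of the 14 that passed the filter rose, with a median of 3.03. Only 7 of these 14 pass the filter in the 6-week libraries alone. Hist1h2bn, with 6 counts in all vehicle libraries of 6 weeks together, is not among these 7. Passing already required it to be higher than at 6 weeks. Hist1h2bn, at 8.27 ± 2.92 against 0.0245 ± 0.0163 CPM, had a log2 difference of 8.24 ± 0.39 (adjusted p = 1.89e-10), and Hist1h2bg, at 25.9 ± 5.94 against 2.51 ± 0.302 CPM, one of 3.40 ± 0.15 (adjusted p = 1.08e-10). The abundant Hist1h2bc rose by 0.73 ± 0.10 (adjusted p = 8.12e-06), at 68.7 ± 8.54 against 42.1 ± 4.81 CPM.

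The remaining pair of H2B genes did not pass. Hist2h2be had 17.1 to 25.8 CPM with a median of 20.5 at 18 weeks, against 25.4, 24.8, 20.2, 22.2 and 24.1 CPM at 6 weeks, and these ranges overlapped (log2 difference -0.11 ± 0.11, adjusted p = 0.382). Hist3h2ba had a log2 difference of 0.01 ± 0.27 (adjusted p = 0.976). Of the H2A genes, 7 of the 9 that passed the filter rose, among them Hist2h2ac with 3.56 ± 0.24 and Hist1h2ae with 2.51 ± 0.26. Only 5 of these 9 pass the filter in the 6-week libraries alone. Hist3h2a had -0.21 ± 0.13 (adjusted p = 0.142) and Hist1h2ac -0.24 ± 0.19 (adjusted p = 0.255). Across all classes, 44 of the 51 members tested had every 18-week library above every 6-week library, as had 26.1% of all genes tested, and the 25 members named above as passing through the 18-week libraries alone are counted among the 51.

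The differences were also grouped by the annotated 3′ end. Among members tested, the median log2 difference between 18 and 6 weeks was 2.04 for the 13 with a polyadenylation signal near the end, 4.80 for the 26 with a stem-loop only and 6.00 for the 12 with neither motif. Of these, 10, 23 and 12 rose in the same order, where 35.9% of all genes tested rose. Values ran from -0.21 to 7.22 with a signal, from -0.24 to 11.31 with a stem-loop only and from 0.73 to 9.90 with neither motif. Membership of that last group depends on where the annotation ends, so it does not show that these genes lack a stem-loop. Where the stem-loop lay within 100 bases of the annotated end, the median was 5.57 over 17 members and the lowest value 0.91. Where more than 100 bases followed it, the median was 1.94 over 20 members and the lowest value -0.24. Hist1h1c and Hist3h2a, whose 3′ ends are printed above, have 840 and 1643 annotated bases behind the stem-loop and a signal at the end, and Hist2h2be has the signal without a stem-loop match. Hist1h4h, with the signal close behind the stem-loop, rose by 6.50. Hist1h4d, with 770 annotated bases behind the stem-loop, also rose strongly.

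**Figure D3:**
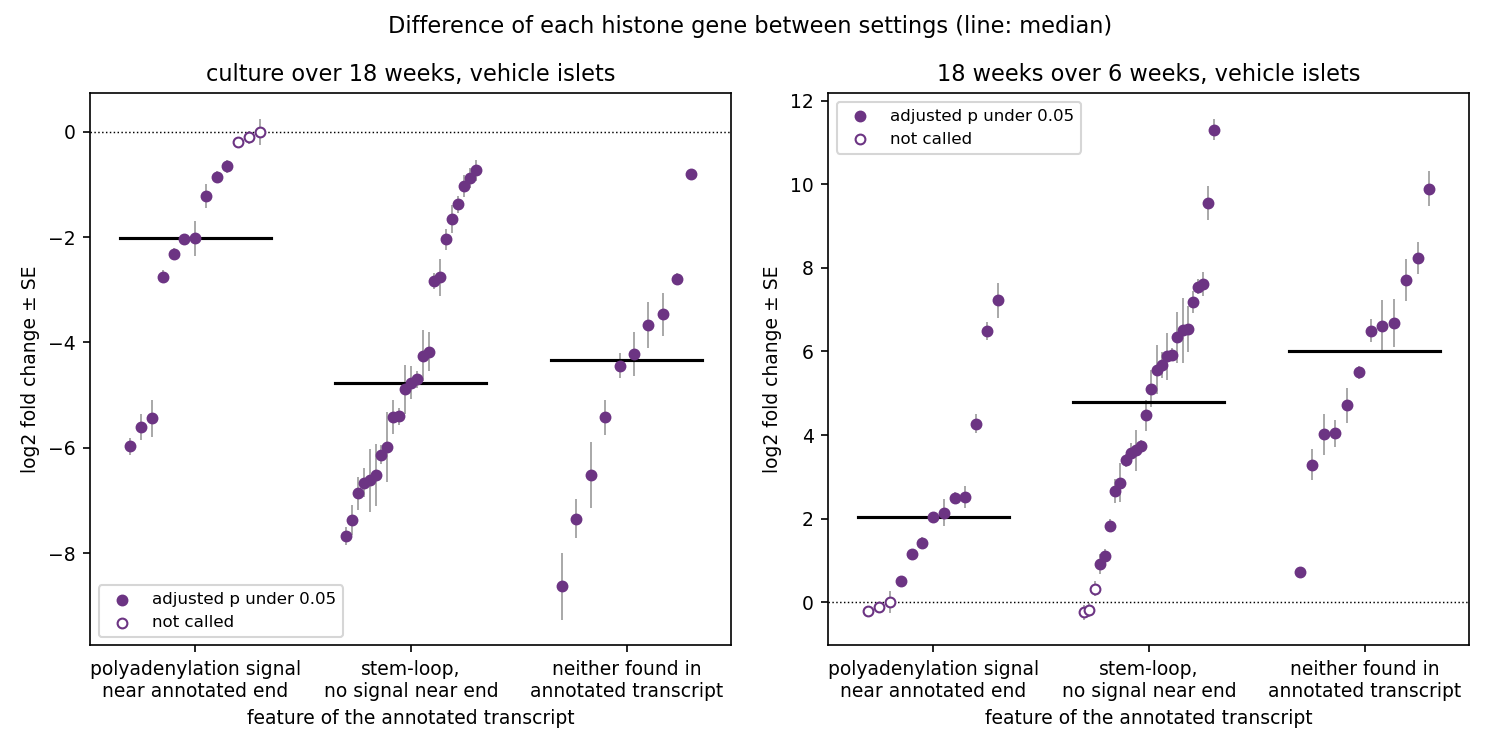
Log2 difference ± SE of each member tested, grouped by the motif at the annotated 3′ end, for vehicle culture over 18 weeks (left) and 18 weeks over 6 weeks (right), with lines at the medians and open symbols where the test was not passed. Genes with AATAAA or ATTAAA near the end have medians nearest to 0 in both panels, at -2.02 and 2.04.

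These medians and counts carry the filter's preference for members high at 18 weeks, and sequence uniqueness moved with them. The median was 2.96 for the 30 members with at least 50% unique windows, of which 25 rose, and 5.50 for the 21 with fewer, of which 20 rose. It was 5.11 for the 39 members that no other gene overlaps and 3.07 for the other 12. The part of read placement in the differences was not tested. In shares of the members' counts, which need no filter, genes with a signal near the end supplied 66.4% in vehicle culture, 36.2% in vehicle libraries of 18 weeks and 67.7% in those of 6 weeks. Genes with a stem-loop only supplied 12.5%, 52.6% and 14.5% in the same order, and genes with neither motif 21.1%, 11.2% and 17.8%. The genes with neither motif, which had the highest median among members tested, thus supplied a smaller share at 18 weeks than at 6 weeks. Their summed level was 123.2 ± 17.4 CPM in vehicle libraries of 18 weeks against 43.1 ± 4.96 CPM in those of 6 weeks, while genes with a signal summed to 397.9 ± 58.8 against 164.4 ± 8.01 CPM and genes with a stem-loop only to 582.6 ± 115.7 against 35.3 ± 2.62 CPM. Most of the sum of the genes with neither motif came from Hist1h2bc, at 68.7 CPM in vehicle libraries of 18 weeks and 42.1 CPM in those of 6 weeks. The share of that group therefore largely follows Hist1h2bc and not its other genes.

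Other RNAs without a poly(A) tail, 11 structural RNAs on a list made for this purpose, were also higher in sum at 18 weeks. Of the 7 that passed the filter for 18 against 6 weeks, 1 passes it in the 6-week libraries alone, so that passing already required the other 6 to be higher at 18 weeks. That gene, Rn7sk, the small nuclear RNA that holds the elongation factor P-TEFb inactive, had 31290 ± 8998 CPM in vehicle libraries of 18 weeks and 1.58 ± 0.213 CPM in those of 6 weeks. The list supplied 3.18% of all counts at 18 weeks and 0.000169% at 6 weeks. Almost all of its mean of 31310 CPM in vehicle libraries of 18 weeks was Rn7sk, so the sum stands for that 1 gene. The summed list ranged from 2.22 to 4.11 CPM in cadmium and 1.60 to 5.01 CPM in vehicle culture, from 24320 to 52580 in cadmium and 18500 to 44510 in vehicle libraries of 18 weeks, and from 1.32 to 2.64 in cadmium and 1.47 to 2.03 in vehicle libraries of 6 weeks. The preparation of the RNA for each setting was not given in the sources used here, and its part in the histone values cannot be told apart from treatment time or age.

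Genes of S phase did not follow the histone genes. Of 38 genes for DNA replication and the cell cycle, 6 rose and 10 fell at 18 weeks against 6 weeks, with a median log2 difference of -0.15. In this comparison 35.9% of all 20551 genes tested rose and 35.9% fell, and the same shares apply to the other lists below. Pcna, the sliding clamp of the replication fork, rose by 1.14 ± 0.13, and Ccne2, which encodes cyclin E2, rose by 0.89 ± 0.14. E2f1 and Foxm1, transcription factors of the cell cycle, fell by 0.82 ± 0.08 and 1.58 ± 0.23. Of 23 genes for histone mRNA synthesis and processing 6 rose and 11 fell, and Slbp rose by 0.77 ± 0.08. Of 20 histone chaperone genes 6 rose and 8 fell, and of the 7 matched genes for histone mRNA decay 4 rose and 2 fell.

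The replication-independent histone genes, 15 in number, showed no common direction either. Of the 11 that passed the filter 3 rose and 5 fell at 18 weeks against 6 weeks, with 35.9% and 35.9% of all genes tested. H3f3a, for H3.3, was at 48.8 ± 5.91 against 3.73 ± 0.337 CPM and rose by 3.74 ± 0.11, and H2afz, for H2A.Z, was at 88.9 ± 16.1 against 6.60 ± 0.816 CPM and rose by 3.79 ± 0.13. In vehicle culture H3f3a was at 61.6 ± 2.67 and H2afz at 110.8 ± 5.09 CPM, closer to their levels at 18 weeks than to those at 6 weeks. H1fx, a linker histone gene, fell by 1.84 ± 0.17, and H2afx, whose product is phosphorylated at DNA breaks, fell by 0.89 ± 0.12.

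**Figure D4:**
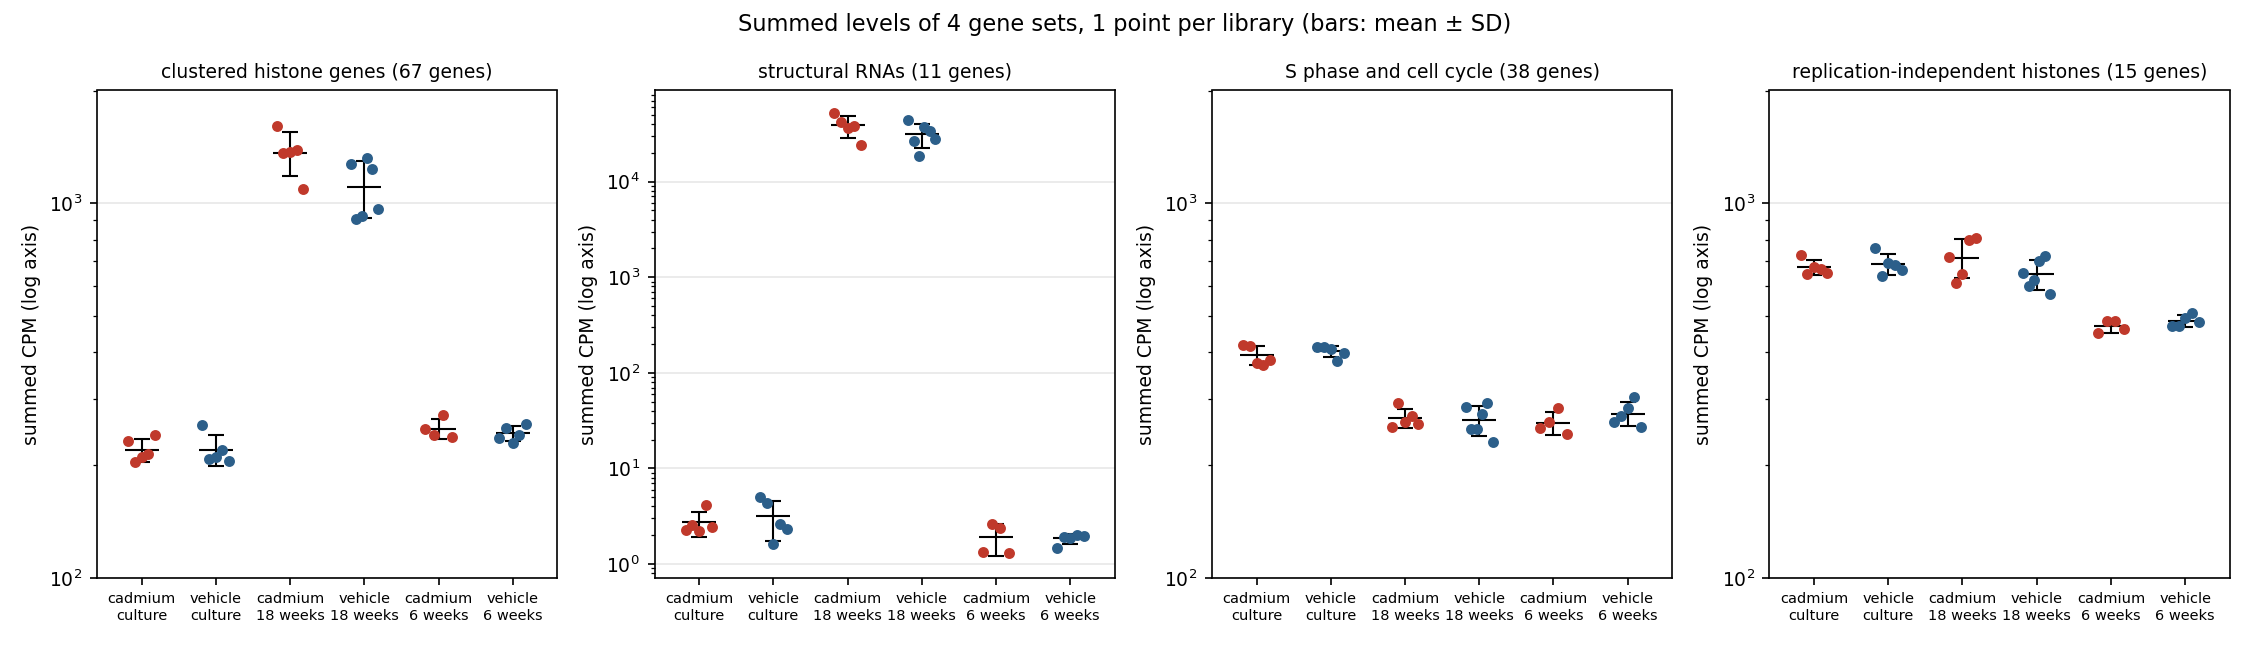
Summed CPM in each library (log axis) of the 67 clustered histone genes, 11 structural RNAs, 38 S phase genes and 15 replication-independent histone genes, with the mean ± SD of each group. Only the clustered histone genes and the structural RNAs have their 18-week libraries apart from those of both other settings, while the S phase sum is highest in culture, at 392.6 CPM with cadmium and 402.1 CPM with vehicle. The structural RNA sum in vehicle libraries of 18 weeks is almost all Rn7sk.

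In culture the histone genes were lower in sum than at 18 weeks. For vehicle culture against vehicle libraries of 18 weeks, 57 of the 67 members had the lower mean CPM in culture, 0 had the higher one and 10 were at 0 in both. Of the 46 that passed the filter 43 fell and 0 rose, where 36.6% of all genes tested fell. Of these 46, however, 21 do not pass that filter in the culture libraries alone, so that passing already required them to be higher at 18 weeks. Of the 25 members that pass the filter in the culture libraries alone, 22 fell and 0 rose, with a median log2 difference of -2.03. Of all 16463 such genes 29.6% fell and 34.3% rose, with a median of 0.03. Of the 46 members, 41 had every culture library below every 18-week library, as had 24.4% of all genes tested, and the 21 named above are counted among the 46.

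Hist1h4d had 0.829, 0.928, 0.905, 1.03 and 0.803 CPM in the 5 vehicle cultures, against 135.2 to 229.6 CPM at 18 weeks, a log2 difference of -7.67 ± 0.18 (adjusted p = 3.15e-13). Hist1h4c fell by 6.13 ± 0.17 on the log2 scale, Hist1h4h by 5.97 ± 0.17 and Hist1h4f by 6.86 ± 0.32. Hist1h3f, at 0.142 ± 0.0749 against 23.1 ± 5.97 CPM, fell by 7.38 ± 0.29, and Hist1h3e by 6.66 ± 0.28. For each of these genes the groups were far apart. Hist1h1e, with 4.54, 3.78, 3.27, 3.79 and 2.90 CPM in culture, fell by 4.70 ± 0.16, and Hist1h1c by 0.65 ± 0.12 (adjusted p = 0.000268). Hist1h2ak, an H2A gene, had 0 counts in culture and 322 at 18 weeks, at least 63.7-fold lower. Hist1h4f, Hist1h3f and Hist1h2ak do not pass the filter in the culture libraries alone. Passing already required them to be higher at 18 weeks. The members tested that did not pass were Hist2h2be with -0.20 ± 0.10 (adjusted p = 0.0945), Hist3h2a with -0.10 (adjusted p = 0.467) and Hist3h2ba with 0.00 (adjusted p = 0.989).

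Between vehicle culture and vehicle libraries of 6 weeks the members moved in both directions. Means were higher in culture for 28 of the 67, lower for 28 and 0 in both for 11. Of the 25 that passed the filter 6 rose and 8 fell, with 33.0% and 34.8% of all genes tested, and the median log2 difference was -0.11. Hist1h4k, with 4.76, 3.92, 4.63, 3.53 and 3.42 CPM in culture against 0.688, 0.803, 0.384, 0.530 and 0.617 CPM at 6 weeks, rose by 2.80 ± 0.19 (adjusted p = 3.24e-08). Hist1h4n had 98 counts in culture against 2, a ratio with a 95% counting interval of 27.1 to 840.0. Hist1h4n does not pass the filter in the 6-week libraries alone, so that passing already required it to be higher in culture. For both genes the groups did not overlap.

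The other genes that rose in culture were Hist1h2ae by 1.42 ± 0.20, Hist1h2bg by 0.67 ± 0.12, Hist1h4i by 0.66 ± 0.12 and Hist1h4h by 0.62 ± 0.21. The largest falls were in Hist4h4 by 1.24 ± 0.31, Hist1h2ac by 1.18 ± 0.12 and Hist2h3c2 by 0.96 ± 0.14. Hist4h4 does not pass the filter in the culture libraries alone, so that passing already required it to be lower in culture. Hist1h1e, at 3.66 ± 0.621 against 6.88 ± 0.525 CPM, fell by 0.85 ± 0.12, and Hist1h2be, at 9.29 ± 0.285 against 16.5 ± 1.34 CPM, by 0.77 ± 0.06. Hist2h2be, Hist1h2ad and Hist3h2a fell by 0.21 to 0.64. The groups did not overlap for 5 members above, against 22.2% of all genes tested, and for 7 below, against 31.7%. Hist1h4n is counted among the 5 and Hist4h4 among the 7.

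In the same comparison the S phase genes rose together, 32 of 38, with 0 falling and a median log2 difference of 0.77. Of all genes tested there, 33.0% rose and 34.8% fell. Pcna rose by 1.45 ± 0.05 and Uhrf1, which maintains DNA methylation at replication, by 2.21 ± 0.18. Slbp rose by 0.68 ± 0.06. Against vehicle libraries of 18 weeks, too, 32 S phase genes rose in culture and 1 fell, with 30.6% and 36.6% of all genes tested. Of the histone genes 43 of the 46 tested fell there, and 22 of the 25 that pass the filter in the culture libraries alone. The macrophage marker list, 8 genes, summed to 454.2 ± 29.4 CPM in vehicle culture, 101.3 ± 8.23 at 18 weeks and 326.6 ± 115 at 6 weeks, and the acinar list of 13 genes to 28.0 ± 19.8, 5683 ± 3377 and 28640 ± 6734 CPM. The erythroid list of 6 genes summed to 1.47 ± 0.243, 50.8 ± 39.4 and 16.2 ± 5.33 CPM in the same order. No other list of cell markers had its highest vehicle mean at 18 weeks. The part of the mix of cells in the histone values was not tested.

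Cadmium was compared with vehicle within each setting, which is the comparison the treatment labels imply. No member passed the test in any of the 3 settings. At 18 weeks 53 members were tested, where 0.359% of all 20911 genes passed, and 17 members (32.1%) had an unadjusted p under 0.05, as had 3804 of all genes (18.2%). The log2 difference was positive for 45 of the 53, with a median of 0.41 against 0.00 for all genes. In summed CPM the H3 genes were at 136.4 ± 16.7 in cadmium and 99.0 ± 29.0 in vehicle libraries, and the H4 genes at 706.7 ± 166 and 545.4 ± 93.9.

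The smallest p-values at 18 weeks belonged to Hist1h3f, with 40.6, 32.0, 35.5, 33.1 and 22.3 CPM in cadmium libraries against 17.2 to 30.3 CPM with a median of 22.5 in vehicle libraries. Its log2 difference was 0.52 ± 0.17 (adjusted p = 0.167). Hist1h2bg had 35.6, 37.5, 31.5, 34.9 and 28.5 CPM against 20.2 to 35.5 CPM with a median of 24.5, a log2 difference of 0.39 ± 0.13 (adjusted p = 0.169). The groups overlapped for both. Among members with negative differences the smallest p-values were those of Hist1h4m, with -0.48, and Hist1h2ad, with -0.28. No member had groups that did not overlap, against 0.713% of genes above and 0.66% below.

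The acinar marker list moved at 18 weeks: 10 of 13 genes rose in cadmium libraries, and the list summed to 11400 to 176500 CPM against 1772 to 11760 CPM in vehicle libraries. The 7 structural RNAs tested had positive differences with a median of 0.35 and 0 rose, and of the 37 S phase genes tested 0 passed. The part of acinar RNA in the histone differences was not tested. A fit of all 30 libraries together called 6 members at 18 weeks (Hist1h3f, Hist1h2bg, Hist1h4h, Hist1h4c, Hist1h4d and Hist3h2ba, all higher with cadmium), where it called 11.0% of all genes. Leaving out cadmium library 5, the lowest for the H4 genes, gave 1 member, Hist1h4h (adjusted p = 0.0459), where 1.49% of genes passed.

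**Figure D5:**
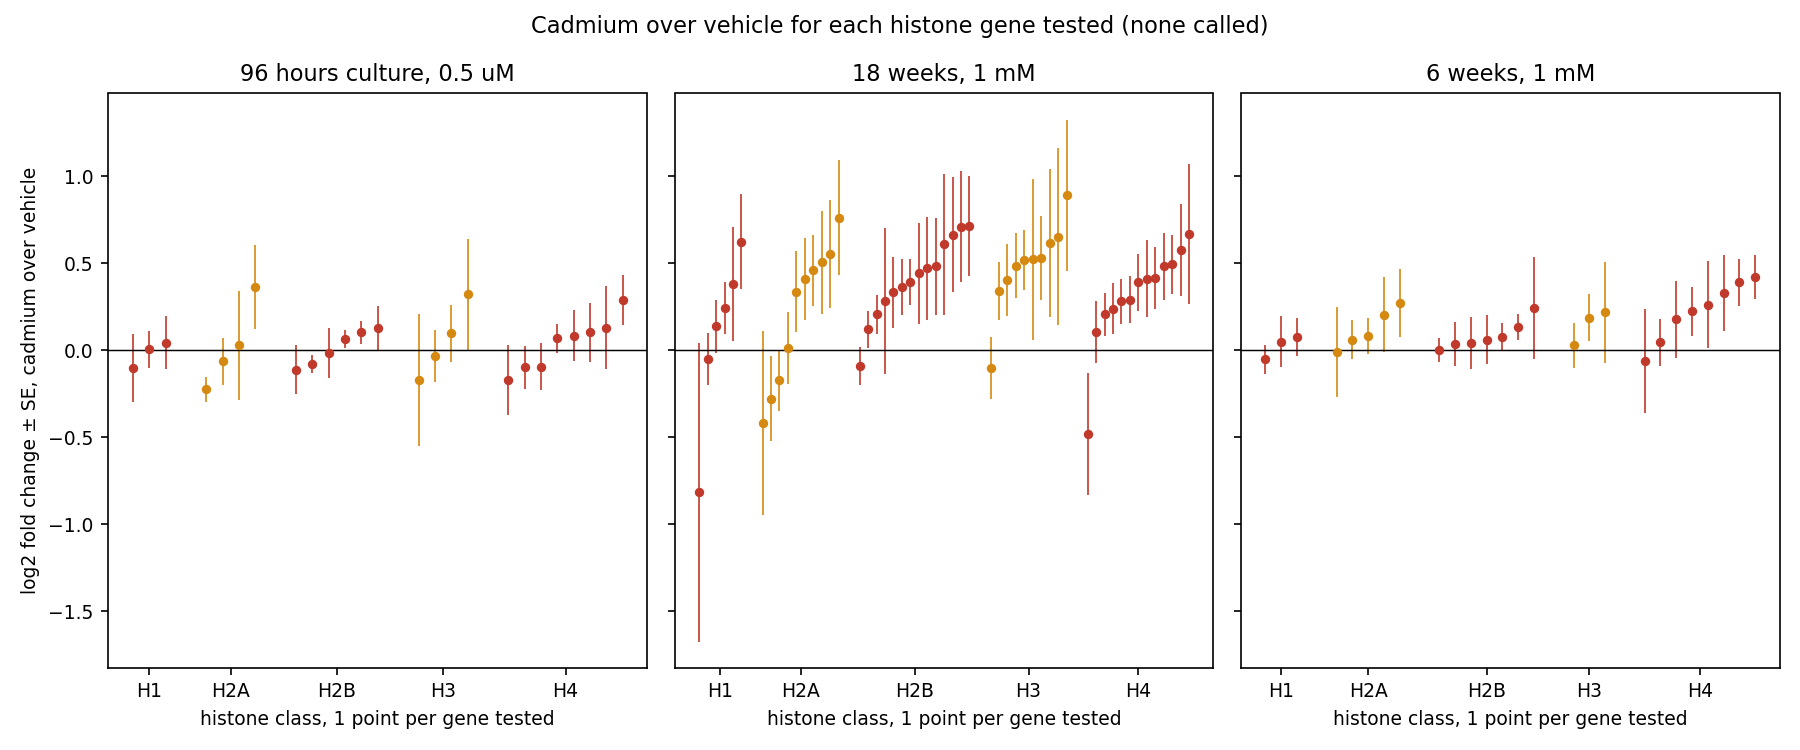
Log2 difference ± SE between cadmium and vehicle for each member tested, by class, in culture, at 18 weeks and at 6 weeks (colours only separate the classes). At 18 weeks 45 of 53 values are above 0 without any passing the test, and in culture the values lie on both sides of 0.

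At 6 weeks 26 members were tested, and 0.0% of all 18080 genes passed (0 by edgeR, 11 by DESeq2, none of those a member). An unadjusted p under 0.05 was found for 2 members (7.69%) and for 923 genes (5.11%). These 2 were Hist2h4, with 10.6, 7.49, 9.18 and 10.7 CPM in cadmium libraries against 7.34, 6.79, 6.55, 6.16 and 8.67 CPM in vehicle libraries, a log2 difference of 0.42 ± 0.13 (adjusted p = 0.919), and Hist1h4c, with 2.44, 2.10, 2.29 and 2.42 against 1.76, 2.15, 1.54, 1.59 and 1.79 CPM, one of 0.39 ± 0.13 (adjusted p = 0.919). The groups overlapped for both H4 genes. The median over the 26 members was 0.08, and Hist1h1c had -0.05 ± 0.09. No member had groups that did not overlap, against 0.697% of genes above and 0.78% below.

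In culture 25 members were tested, and 0.00597% of all 16743 genes passed, which was 1 gene and no member. The only member with an unadjusted p under 0.05 was Hist3h2a, with 7.28, 7.29, 8.31, 8.39 and 7.62 CPM in cadmium against 9.59, 8.85, 9.19, 9.61 and 8.38 CPM in vehicle cultures (log2 difference -0.22 ± 0.07, adjusted p = 0.888). Its groups barely overlapped, the highest cadmium culture at 8.39 and the lowest vehicle culture at 8.38 CPM. At that level 5.49% of all genes were reached. The median over the 25 members was 0.03, Hist1h4h had 0.29 ± 0.14 and Hist2h2be -0.08 ± 0.05. No member had groups that did not overlap, against 0.299% of genes above and 0.424% below.

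The cadmium differences were also set against each other between settings, in a fit of all 30 libraries with 53 members tested. No member passed for 18 weeks minus 6 weeks (1.68% of 22721 genes did), for culture minus 6 weeks (0.0%) or for culture minus 18 weeks (0.0176%). With an unadjusted p under 0.05 there were 1, 3 and 3 members (1.89%, 5.66% and 5.66%), against 21.3%, 3.34% and 13.2% of all genes. Hist2h2ab, a rarely counted H2A gene, had the smallest p, for culture minus 18 weeks, with -5.13 ± 1.33 (adjusted p = 0.162). It had 0 counts in all 5 cadmium cultures and at most 0.108 CPM in the vehicle cultures, so this value rests on a few reads. Without the 3 libraries of 18 weeks that have under 25000000 counts, Hist3h2ba passed for 18 minus 6 weeks (1.08, where 11.3% of genes passed), and Hist3h2ba and Hist2h2ab passed for culture minus 18 weeks (-1.25 and -5.33, where 4.71% passed). Without cadmium library 5 of 18 weeks, Hist2h2ab alone passed for culture minus 18 weeks (-5.29), where 1.58% of genes did.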

How the data were processed

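Per the submitters' processing notes, reads were trimmed with cutadapt 1.13, aligned with STAR to mm10 and counted with HTSeq 0.6.1p1, and DESeq2 was used; strand, read placement and RNA selection were not given in the sources used here. The deposited values are raw counts per Ensembl gene, with totals of 9092759 to 58366797 per library. Of 54232 IDs, 54165 matched GENCODE M21; the unmatched 67 held at most 0.0172% of a library, and 3 histone-named pseudogenes are outside the rule. The labels put the 30 libraries in 6 groups.

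For every comparison edgeR 4.0.16 was run on the counts of its 2 groups alone (R 4.3.3, limma 3.58.1), with filterByExpr (minimum count 10, total 15), TMM scaling, quasi-likelihood test, Benjamini-Hochberg adjustment over all genes at 0.05; SE is the log2 difference over the root of F. The scripts were tested on simulated data. Differences between settings in the cadmium effect used 1 fit of all 30 libraries. Members were named as the 3 highest per kilobase in each class, up to 12 per comparison by smallest p, or, where none passed, the 2 of smallest p on each side; other members named were chosen after their values were seen. Levels are CPM with TMM factors over all libraries. Ratios with 1 to 3 counts have 95% intervals; intervals and floors cover counting error only. Tables and figures used Python 3.11.15, pandas 2.3.3, numpy 2.4.6, scipy 1.17.1 and matplotlib 3.10.9. Alternatives were DESeq2 1.42.0, RLE scaling, no filter, 1 fit of all libraries, a replicate block, acinar and Reg genes left out of scaling, 3 18-week libraries under 25000000 counts left out, and each library left out. No 2 libraries of a group were alike within sampling noise (61 pairs, lowest chi-square per degree of freedom 2.92). The members and gene lists were chosen with earlier results of these data known.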

Additional observations from a re-analysis of the deposited data

Results flagged for a closer look

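Among 126 sets of values of 1 group (4 to 6 libraries), 6 had a library standing apart from the rest by Dixon's test, and chance gives about 1 in 20. The summed members were at 256.1 CPM in vehicle culture 1, with the next library at 218.8. Hist1h4c was at 2.156 CPM in cadmium culture 2, with the next at 1.628, and Hist1h1d at 9.129 CPM in cadmium culture 1, with the next at 5.929. Hist1h4h was lowest in cadmium 18-week library 5, at 95.97 CPM, with the next at 165.2. Hist1h2bb was at 0.3529 CPM in cadmium 6-week library 2, with the next at 0.2286. Hist1h3e was lowest in vehicle 6-week library 4, at 0.1546 CPM, with the next at 0.3528.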

How the results depend on the processing

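The members' rise at 18 weeks against 6 weeks and their fall in culture against 18 weeks kept direction and count, within 1.5 times, under every alternative run. Against the 45, 43 and 14 members called for 18 over 6 weeks, culture over 18 weeks and culture over 6 weeks, DESeq2 called 50, 50 and 19, no filter 51, 51 and 20, and the fit of all libraries 47, 49 and 20. Leaving out each library in turn gave 43 to 47, 41 to 46 and 13 to 18. DESeq2 put the median log2 difference of all genes at 0.33, -0.28 and 0.14 and that of the members at 4.13, -3.70 and 0.14.

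For cadmium at 18 weeks, the fit of all libraries called 6 members, and leaving out 1 library at a time called 0 to 1, the 1 being Hist1h4h without cadmium library 5 (log2 difference 0.63). For 18 minus 6 weeks, leaving out the 18-week libraries under 25000000 counts called 1 member, Hist3h2ba (1.08, adjusted p = 0.0189), where 11.3% of genes passed. For culture minus 18 weeks the same step called 2, Hist3h2ba (-1.25) and Hist2h2ab (-5.33), where 4.71% passed, and leaving out each library called 0 to 1, Hist2h2ab without cadmium 18-week library 5 (adjusted p = 0.0385). Leaving out each library called 0 to 0 members for cadmium at 6 weeks and in culture. Genes called in all for cadmium ran from 0 to 2496 at 18 weeks, 0 to 223 in culture and 0 to 11 at 6 weeks over the alternatives. The cause of these moves was not tested.

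Without TMM the summed level was 248.0 CPM in cadmium and 241.9 in vehicle culture, and 225.0 and 221.9 in cadmium and vehicle libraries of 6 weeks. At 18 weeks it was 1288 in cadmium and 1121 in vehicle libraries, against 1365 and 1104 with TMM. Values that turned were Hist1h1c at 6 weeks (0.0103 without cadmium replicate 4, with a range of -0.11 to 0.0103 over libraries left out), Hist4h4 at 6 weeks (0.15 without vehicle replicate 4, 0.14 without cadmium replicate 4, range -0.17 to 0.15) and Hist1h2ak for culture minus 18 weeks (-0.39 without cadmium culture replicate 4, range -0.39 to 1.49). Deviations of same-numbered libraries correlated at -0.136 to 0.257 over all comparisons. Between cadmium and vehicle the range was 0.0156 to 0.137 in culture, -0.11 to 0.257 at 18 weeks and -0.0151 to 0.113 at 6 weeks. The best match was the library's own number for replicates 1, 2 and 3 in culture, 1 and 5 at 18 weeks and 4 at 6 weeks. The replicate block called 223 genes for cadmium in culture, against 1 without it, and 1 against 75 at 18 weeks. Whether replicate numbers pair the samples was not tested. With the replicate block 45, 43 and 13 members were called in the 3 setting comparisons and 0 in each cadmium comparison. Depth limits members with few counts, whose differences rest on a handful of reads.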
